A study of Mus musculus with 10 samples.

Results

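The new-RNA signal that appears when no conversion chemistry is applied was described in 4 libraries. They were made by RNA-seq from NIH-3T3, an established mouse fibroblast line that is labelled wild type. These were 2 libraries (A and B) of cells given 800 µM uridine for 2 h and 2 libraries (A and B) of cells given 800 µM 4-thiouridine (4sU) for 2 h. They are 4 of 10 libraries in the series, which also holds 4 converted 4sU libraries (SLAM A and B, treated with iodoacetamide, and TUC A and B, treated with osmium tetroxide plus an ammonium salt) and untreated cells. Uridine and unconverted 4sU libraries share the absence of chemistry and differ in the nucleoside added. The value described is the MAP, the posterior mode of a share between 0 and 1 given per gene and library, taken here as the new part of that gene's RNA. Each MAP comes with a lower and an upper bound, the 0.05 and 0.95 quantiles of the same estimate. Genes were kept where all 4 libraries held 100 or more reads, which left 9981 of 17053 genes. Another 3236 genes had an estimate in all 4 libraries with fewer reads, and 3836 lacked an estimate in at least 1 library.

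4sU is a uridine analogue that cells take up, phosphorylate and build into RNA while they transcribe. SLAM and TUC chemistry change the base so that the polymerase copying the RNA pairs it as cytidine, and new molecules are then recognised by T-to-C mismatches. A mismatch can also come from a sequencing error, a genomic difference between the cells and the reference, or a read placed on a near-identical gene copy. Every such estimate therefore has a background. A-to-I RNA editing is read as A-to-G, which equals T-to-C only when the opposite strand is read. RNAs that turn over fast, such as those of immediate-early transcription factors, are mostly new after a short pulse, whereas those of ribosomal proteins, collagens and respiratory chain subunits are long-lived and mostly old.

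Gene counts summed to 27094222 in uridine A and to between 29047565 and 33733774 in the other 3 libraries. All 14 fibroblast markers found in the table were expressed, summing to 19300 to 25000 CPM (relative to the gene total) per library. The listed macrophage, epithelial, endothelial, and adipocyte or muscle markers summed to at most 12.5 CPM each, with the endothelial Kdr and the adipocyte Adipoq at 0 in all 4. The labels do not say whether A and B came from separate cultures, so the spread between them may be technical. In a bulk library fewer labelled cells and less label per cell cannot be told apart. The conversion rates behind each library's MAP were not analysed here, so a library-wide difference in scale and a difference in labelled RNA cannot be told apart from the level of a single library.

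Across the 9981 genes the MAP was low in all 4 libraries and higher with 4sU. Its median was 0.0142 in uridine A and 0.010 in uridine B, against 0.0194 in unconverted 4sU A and 0.0177 in unconverted 4sU B. Both 4sU libraries thus lay above both uridine libraries, with a ratio of group means of 1.53. The group means were 0.0186 ± 0.0012 with 4sU and 0.0121 ± 0.00297 with uridine (SD, n = 2 each), and a two-sided exact permutation test over the 4 libraries gave p = 0.33, the smallest value that 2 against 2 allows. The converted libraries had medians between 0.523 and 0.630. Weighted by reads, the mean MAP was 0.0155 and 0.0116 in uridine A and B and 0.0183 and 0.0174 in unconverted 4sU A and B (exact permutation p = 0.33). This gap, 0.0043, was narrower than that of the medians, and the genes with the lowest SLAM MAP held 37.6% of the reads of uridine A.

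**Figure D1:**
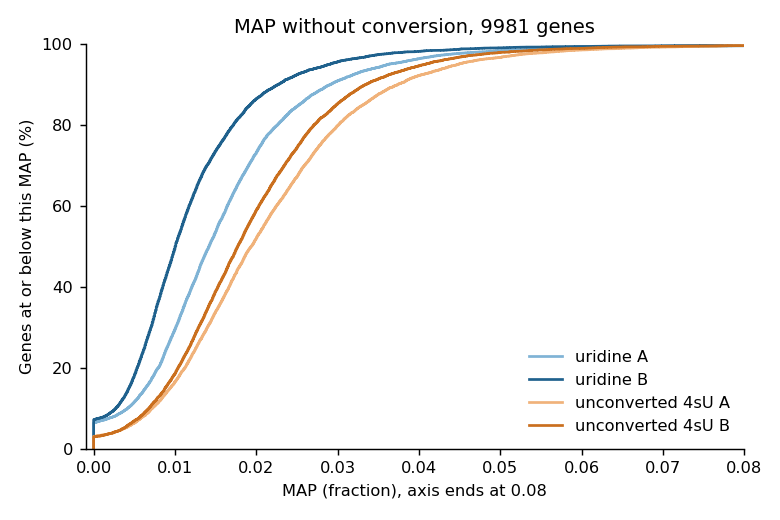
Cumulative share of genes (percent, vertical axis) at or below a given MAP (fraction, horizontal axis, ending at 0.08) in the 4 libraries without conversion, 1 line per library. The uridine B line rises first (median 0.010) and both unconverted 4sU lines lie to the right of both uridine lines (medians 0.0194 and 0.0177).

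At the bottom of the scale, 637 genes (6.38%) had a MAP of 0 in uridine A and 717 (7.18%) in uridine B, against 305 (3.06%) in unconverted 4sU A and 294 (2.95%) in unconverted 4sU B. A MAP of 0 in both uridine libraries and in neither 4sU library was found for 111 genes, and the reverse for 22. Among genes with a mean of 100 to 300 reads, 26.0 and 29.7% had a MAP of 0 in uridine A and B. In unconverted 4sU A and B these shares were 14.3 and 14.1%. Above 3000 reads the share was 0.0435% in each uridine library and 0% in each 4sU library. At the top, 163 and 95 genes reached 0.05 in uridine A and B, and 333 and 210 in unconverted 4sU A and B. The 0.05 to 0.95 interval had a median width of 0.0178, 0.0134, 0.0198 and 0.0176 in the same order, so for a typical gene the interval was about as wide as the MAP itself. At the read minimum, the 50 genes just inside had median MAP of 0.0126, 0.0104, 0.00925 and 0.0140, and the 50 just outside 0.0158, 0.0051, 0.0173 and 0.0164.

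Gene by gene, both 4sU libraries exceeded both uridine libraries at 4544 genes (45.5%) and lay below both at 445 (4.46%). No gene passed limma on log2(MAP + 0.01) with Benjamini-Hochberg adjustment over all 9981 genes (0% called in either direction, smallest adjusted p = 0.301). At an unadjusted p under 0.05 there were 1432 genes higher with 4sU (14.3%) and 80 lower (0.802%). The median log2 difference was 0.33, on a scale where the added 0.01 shrinks the differences of low genes. It was 0.54 and 0.13 with 0.001 and 0.05 added instead, and 0.19 without uridine B. When each gene was weighted by the precision of its own interval, limma called 59 genes higher (0.591%) and 0 lower (0%), with 49 lower at an unadjusted p under 0.05. Within letter A 67.0% of genes had the higher MAP with 4sU, and within letter B 80.6%.

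The excess in 4sU libraries was graded by how new a gene's RNA was in the converted libraries. Genes were put in 5 equal bins of their mean SLAM MAP, a measure from libraries other than the 4. The sample titles do not say whether converted and unconverted 4sU libraries came from the same cultures or RNA. In the lowest bin (SLAM MAP up to 0.274) the median was 0.0127 and 0.0091 in uridine A and B and 0.0118 and 0.0114 in unconverted 4sU A and B, so the groups overlapped. In the middle bin the medians were 0.0143 and 0.0098 with uridine and 0.0197 and 0.0177 with 4sU. In the highest bin (SLAM MAP of 0.897 and above) they were 0.0153 and 0.0110 with uridine and 0.0281 and 0.0247 with 4sU. From lowest to highest bin the median MAP thus differed by 0.0163 and 0.0133 in the 4sU libraries and by 0.0026 and 0.0019 in the uridine libraries. The group means of that step were 0.0148 ± 0.00212 and 0.00225 ± 0.000495 (SD, n = 2 each; exact permutation p = 0.33, the smallest possible).

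**Figure D2:**
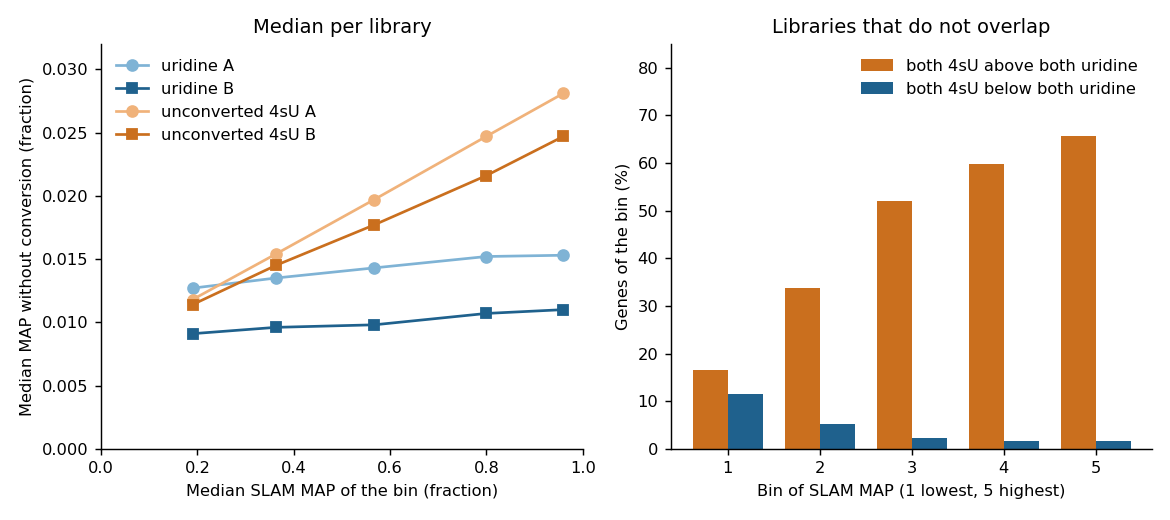
Left, median MAP without conversion (fraction, vertical axis) in 5 bins of genes placed at their median SLAM MAP (fraction, horizontal axis), 1 line per library. Right, percent of the genes of each bin with both 4sU libraries above (orange) or below (blue) both uridine libraries. The 4sU lines climb from 0.0118 and 0.0114 to 0.0281 and 0.0247 while the uridine lines move from 0.0127 and 0.0091 to 0.0153 and 0.0110.

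Counts of genes followed the same order. Both 4sU libraries lay above both uridine libraries at 16.5, 33.7, 52.0, 59.8 and 65.6% of genes from the lowest to the highest bin, against 45.5% of all genes. Both lay below at 11.4, 5.31, 2.3, 1.70 and 1.60%, against 4.46%. In the highest bin the 4sU median exceeded the uridine median of the same letter by 0.0128 (A) and 0.0137 (B), which is 1.33 and 1.43% of the SLAM median of that letter. In the lowest bin the same difference was -0.0009 in A and 0.0023 in B. Centring moves all genes of a library by 1 constant, so it leaves differences between bins as they are and moves only the balance of directions. Centring each library on its median took the median log2 difference from 0.33 to -0.046, slightly past 0. Both 4sU libraries then lay below both uridine libraries at 57.0% of the lowest bin and above at 3.05%, and in the highest bin these were 6.66 and 39.1%. Over all genes the centred counts were 1880 higher (18.8%) and 2618 lower (26.2%), so the balance of directions depends on the scaling.

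Across the 9981 genes, Spearman's rho between the MAP and the mean SLAM MAP was 0.519 and 0.468 in unconverted 4sU A and B and 0.094 and 0.092 in uridine A and B. With the mean TUC MAP it was 0.514 and 0.462 against 0.090 and 0.087. These are descriptions across genes, which are not replicates. The 4 values of a kind gave an exact permutation p of 0.33 between groups, with no overlap. The rank correlation of the MAP between libraries was 0.415 for the uridine pair and 0.528 for the unconverted 4sU pair, and 0.361 to 0.398 between a uridine and a 4sU library. The gene order in the uridine libraries was therefore partly shared with the 4sU libraries and weakly with the converted ones.

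The relation to SLAM was described again by read class, and the part that depth plays in it was not tested. Among genes with a mean of 100 to 300 reads, rho with SLAM was 0.291 in each 4sU library and 0.061 and 0.068 in uridine A and B. For 1000 to 3000 reads it was 0.594 and 0.522 with 4sU and 0.128 and 0.112 with uridine, and above 3000 reads 0.662 and 0.623 against 0.158 and 0.144. The median interval width narrowed over these classes, from 0.0458 to 0.0090 in uridine A and from 0.0414 to 0.0085 in unconverted 4sU B. Gene length was related to the difference of group means with rho = 0.195 over all genes and to the SLAM MAP with rho = 0.326. Within the 5 bins the first of these lay between -0.005 and 0.037. Median reads were 1640 in the lowest bin and 910.4 in the highest. The part that length plays was not tested either.

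At 177 genes (1.77%) the lower bounds of both 4sU libraries lay above the upper bounds of both uridine libraries, and at 0 genes the reverse held. No test goes with that count. The number depended on which libraries were compared, and the letters were not taken to pair them. Within letter A alone 774 genes (7.75%) were separated upward and 75 (0.751%) downward, and within letter B alone 1690 (16.9%) and 9 (0.0902%). Without uridine A the count over both letters was 1117 upward and 1 downward, without uridine B 241 and 29, without unconverted 4sU A 327 and 2, and without unconverted 4sU B 605 and 3. The 177 genes were deeply read (median 6006 reads against 1259 for all genes) and had a median SLAM MAP of 0.911 against 0.567. Of them 154 lay in the 2 highest bins of SLAM MAP and 0 in the lowest. Their share per bin was 0, 0.2, 0.952, 2.81 and 4.91% from lowest to highest.

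The genes with the widest gap between intervals, chosen after their values were seen, were RNAs with a high SLAM MAP, from 0.826 in SLAM A for Aff4 to 1.00. Mta2, a chromatin remodelling subunit with the same gap as the last of them, 0.0059, had a lower SLAM MAP of 0.724 and 0.799. Thbs1, which encodes the matrix glycoprotein thrombospondin 1, had a MAP of 0.0135 and 0.0112 in uridine A and B and of 0.0277 and 0.0254 in unconverted 4sU A and B. Its SLAM MAP was 0.951 and 0.980. The bounds left a gap of 0.0093, with the highest uridine bound at 0.0149 and the lowest 4sU bound at 0.0242. Nr4a1, an orphan nuclear receptor induced as an immediate-early gene, had 0.0171 and 0.0102 with uridine and 0.0339 and 0.0300 with 4sU. For Ptgs2, the inducible cyclooxygenase, the values were 0.0093 and 0.0057 against 0.0223 and 0.0197. In each of these 3 genes the 4sU libraries did not overlap the uridine libraries, and their log2 differences were 0.71 ± 0.237, 0.84 ± 0.270 and 0.83 ± 0.252 (SE). None passed limma without weights (adjusted p = 0.316, 0.315 and 0.315), and all passed with precision weights (adjusted p = 0.000198, 0.0249 and 0.0116). The weights come from the same intervals by which these genes were chosen, so the weighted outcome was favoured by the choice.

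Ctgf, a secreted matricellular protein and YAP target, stood at 0.0137 and 0.0134 with uridine and 0.0321 and 0.0288 with 4sU, and its MAP was 1.00 in both SLAM libraries. Msh6, a mismatch repair protein, had 0.0074 and 0.0084 against 0.0282 and 0.0271. Nfe2l2, which encodes the antioxidant transcription factor NRF2, had 0.0080 and 0.0078 against 0.0255 and 0.0264. The other genes of this kind were the histone demethylase Kdm2a, the transcription factor Hivep2, Rassf8, the sphingosine phosphate receptor S1pr3, the pseudokinase Peak1 and the elongation factor Aff4. Their log2 differences ran from 0.83 for S1pr3 and Peak1 to 1.25 for Hivep2. All 12 genes named here passed with weights and not without, but choice and weights rest on the same intervals, so this adds no support. The same holds for weighted calls of other genes named for separated intervals. In the RefSeq names table Msh6 overlaps Fbxo11 and Rassf8 overlaps Gm15704, both also in the count table. The rule by which a read on 2 genes was counted was not stated in the labels.

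**Figure D3:**
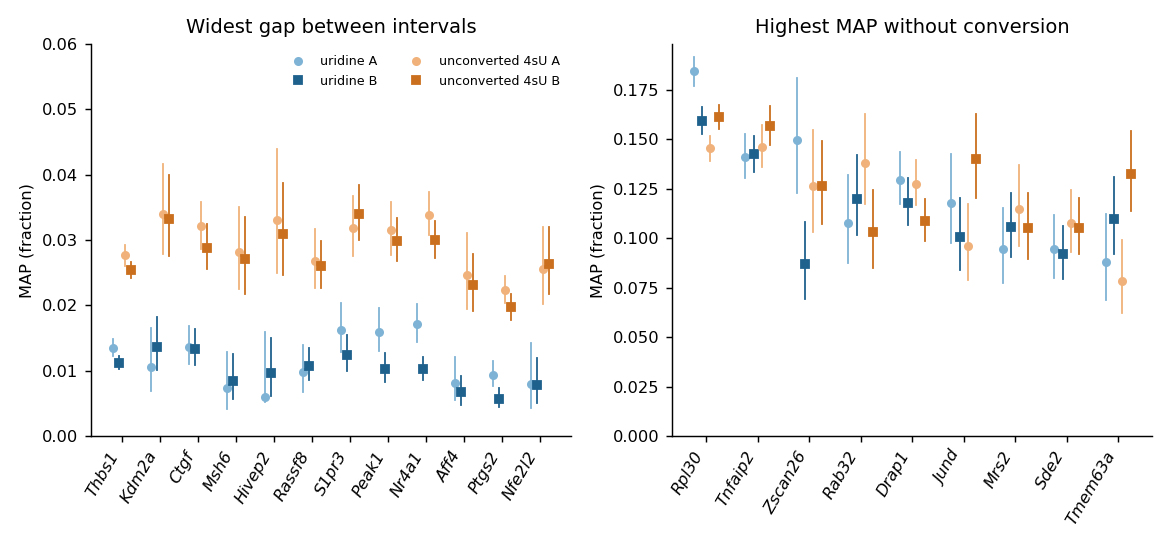
MAP (fraction, vertical axis) with its 0.05 to 0.95 interval (vertical line) in the 4 libraries without conversion, for the 12 genes with the widest gap between intervals (left) and the genes with the highest MAP (right). On the left the 4sU intervals lie above the uridine intervals, as for Thbs1 (0.0277 and 0.0254 against 0.0135 and 0.0112). On the right the 4 libraries lie close together, as for Drap1 (0.1275 and 0.1088 against 0.1296 and 0.1178).

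Among genes with at least 500 reads on average, the largest log2 differences were found where the uridine MAP was at or near 0, and none was called without weights. Zfp212, a zinc finger gene, had 0.0001 and 0.0029 with uridine and 0.0684 and 0.0228 with 4sU (log2 difference 2.15 ± 0.474, limma adjusted p = 0.301). Tgif2, a homeobox repressor of TGF-beta signalling, was at 0 in both uridine libraries and at 0.0440 and 0.0263 with 4sU. Magi3, a scaffold protein, had 0.0057 and 0 against 0.0358 and 0.0377 and was the only 1 of these 8 to pass with weights (adjusted p = 0.046). Zfp930, Usp28, the replication licensing inhibitor Gmnn, the nuclease-helicase Dna2 and the ubiquitin-conjugating enzyme Ube2d1 had log2 differences between 1.70 (Ube2d1) and 1.92 (Zfp930). These 8 genes held between 504.0 reads (Dna2) and 979.8 reads (Ube2d1) per library on average. Their lowest SLAM MAP was 0.563 (Ube2d1, SLAM A). At none of the 8 were the intervals separated. Zfp212 had upper bounds of 0.0187 and 0.0248 in uridine A and B, against a lower bound of 0.012 in unconverted 4sU B. For Tgif2 the upper bound was 0.021 in uridine A and the lower bound 0.0141 in unconverted 4sU B.

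In the other direction the 8 largest differences were smaller and lay in genes of lower SLAM MAP. Lias, the lipoic acid synthase, had 0.0204 and 0.0171 with uridine and 0 in both 4sU libraries (log2 difference -1.52 ± 0.237, limma adjusted p = 0.301). Uckl1, a uridine and cytidine kinase-like protein, had 0.0207 and 0.0219 against 0.0022 and 0.0050. For Gmds, an enzyme of GDP-fucose synthesis, the values were 0.0213 and 0.0116 against 0 and 0.0041. Haus5, Nsmce2, Higd1a, Cox14 and Rnaset2a completed the group, with log2 differences between -1.19 (Haus5) and -0.98 (Rnaset2a). Without 1 library several were smaller by over 1.5 times: -0.64 for Nsmce2, -0.68 for Higd1a and -0.56 for Cox14 without uridine A, and -0.78 for Haus5 and -0.49 for Cox14 without unconverted 4sU A. Without unconverted 4sU B, Cox14 was at -1.53. None of the 8 was called in either fit, with adjusted p in the weighted fit from 0.122 (Lias) to 0.268 (Cox14). Uckl1 overlaps its antisense gene Uckl1os in the names table.

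A second set of genes carried a high MAP whether or not 4sU was given. In both uridine libraries 65 genes (0.651%) reached 0.05, and 52 of them did so in both 4sU libraries too. Over all genes, 116 (1.16%) reached 0.05 in both 4sU libraries, and 64 of these were not among the 65. The median MAP of the 65 was 0.0858 and 0.0736 in uridine A and B and 0.0813 and 0.0723 in unconverted 4sU A and B. Their median gene-wise difference was -0.0001, against 0.0058 for the other genes. Since these genes were picked for their uridine values, a lower value in other libraries is favoured by the choice. Both 4sU libraries were above both uridine libraries at 9 of the 65 and below at 20, against 45.5 and 4.46% of all genes. They were spread evenly over the bins of SLAM MAP (12, 14, 12, 15 and 12 genes).

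Rpl30, a protein of the large ribosomal subunit, had the highest group mean of MAP in both groups among genes with 500 reads or more and no predicted or clone name. Its MAP was 0.1842 and 0.1592 in uridine A and B and 0.1453 and 0.1611 in unconverted 4sU A and B. Its converted values were 0.1732 and 0.1902 in SLAM A and B, the first of them within the range of the unconverted libraries, and 0.2014 and 0.2548 in TUC A and B, both above that range. Like many ribosomal protein genes it has processed copies, from which its reads may not be separable. Whether this raised its MAP was not tested. The 75 cytosolic ribosomal protein genes had a median MAP of 0.0106 and 0.0072 in uridine A and B, against 0.0142 and 0.01 for all genes. Drap1, a repressor subunit that binds TBP-bound promoters, had 0.1296 and 0.1178 with uridine, 0.1275 and 0.1088 with 4sU, and 0.1915 and 0.2054 after SLAM conversion. In neither gene did the unconverted libraries separate by group. AI464131, left out of the ranking by its accession-like name, had the highest MAP of all genes in uridine A (0.2689). It was also highest in unconverted 4sU A and B (0.1568 and 0.2261).

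Other genes of this set had a high background beneath a high converted value. Tnfaip2, a TNF-induced gene, had 0.1411 and 0.1423 with uridine, 0.1461 and 0.1566 with 4sU, and 0.868 and 0.887 in SLAM A and B. Jund, a subunit of the transcription factor AP-1, had 0.1178 and 0.1004, then 0.0962 and 0.1400, and 0.680 and 0.745 after SLAM. Sde2, a replication stress and splicing factor, had 0.0946 and 0.0918 with uridine and 0.1075 and 0.1052 with 4sU. Zscan26, the small GTPase Rab32, the mitochondrial magnesium channel Mrs2 and the ion channel Tmem63a lay between 0.0785 and 0.1494 in the 4 libraries. The log2 differences of these 7 genes were between 0.05 (Tmem63a) and 0.17 (Sde2) with adjusted p of at least 0.727, and only Tnfaip2 and Sde2 had both 4sU libraries above both uridine libraries. All 7 differences are negative under a scaling by the library median, between -0.323 and -0.202 when centred and between -0.529 and -0.408 when divided by it. Mrs2 overlaps Gpld1 in the names table.

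**Figure D4:**
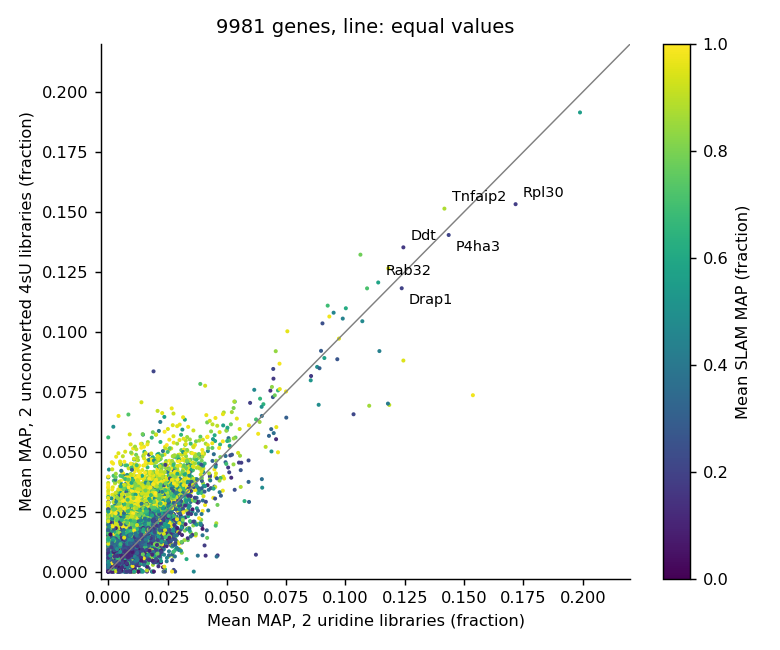
Mean MAP of the 2 unconverted 4sU libraries (vertical axis, fraction) against that of the 2 uridine libraries (horizontal axis, fraction) for 9981 genes, coloured by mean SLAM MAP, with a grey line of equal values. Near the origin genes of high SLAM MAP (yellow) lie above the line, while genes of high MAP in both groups, such as Rpl30 and Drap1, lie close to it whatever their colour.

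Set against the converted value, the background was small for most genes. The mean unconverted 4sU MAP was 3.48% of the mean SLAM MAP at the median gene, and the mean uridine MAP 2.31%. In the lowest SLAM bin the medians were 6.44 and 6.16%, and in the highest 2.74 and 1.38%. The 4sU background reached 10% of the SLAM MAP at 519 genes (5.20%), 426 of them in the lowest bin. The uridine background did so at 500 genes, 428 of them in the lowest bin. The SLAM MAP both sets the bins and divides these shares, so larger shares in the lowest bin are favoured by construction.

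At 13 genes the uridine background was 50% or more of the SLAM MAP, at 10 genes the 4sU background was, and at 8 genes both were. Rpl30 and Drap1 were the most deeply read of the 8, at 94.5 and 62.3% for uridine and 84.3 and 59.5% for 4sU. Ddt, D-dopachrome tautomerase, had 0.1387 and 0.1101 with uridine, 0.1273 and 0.1431 with 4sU and 0.186 and 0.157 after SLAM. P4ha3, a collagen prolyl hydroxylase subunit, had 0.1358 and 0.1512, then 0.1372 and 0.1435, and 0.173 and 0.240. The mean of the 4 unconverted libraries exceeded the mean SLAM MAP at 4 genes, all with predicted or clone names. Gm26825, for example, had 0.0063 and 0.0053 with uridine, 0.0032 and 0.0049 with 4sU, and 0.0001 and 0 in SLAM A and B.

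The gene lists differed in their converted values and in their excess with 4sU. None of their members was called by limma without weights (0% of all genes called), so the members named below are examples chosen after their values were seen. For every list, the shares of all genes to compare are 45.5% above and 4.46% below, and after centring 18.8 and 26.2%. These shares take no account of a list's SLAM MAP, with which the share above rose. Immediate-early and short-lived regulators had 46 members past the read minimum and a median SLAM MAP of 0.983. Their median MAP was 0.0220 and 0.0178 in uridine A and B and 0.0362 and 0.0301 in unconverted 4sU A and B. The median log2 difference was 0.54 against 0.33 for all genes, and both 4sU libraries lay above both uridine libraries at 31 members (67.4%, against 45.5% of all genes) and below at 2 (against 4.46% of all genes). In the highest bin of SLAM MAP the median log2 difference was 0.64, with 65.6% of genes above and 1.6% below. After centring 17 members lay above and 2 below, against 39.1 and 6.66% of the highest bin. Intervals were separated at 8 of the 46 (17.4%, against 1.77% of all genes and 4.91% of the highest bin). These were Ctgf, the MAPK phosphatases Dusp4 and Dusp5, the AP-1 subunits Fosl1 and Fosl2, the HLH inhibitor Id3, the factor Klf4, and Nr4a1. They held between 3778 (Id3) and 19290 (Nr4a1) reads on average. Separation was found at 0% of all genes with a mean of 100 to 300 reads and at 6.09% above 3000. The list was not compared with genes of like depth. Fosl1 overlaps Ccdc85b in the names table. Klf4, for example, had 0.0213 and 0.0187 with uridine and 0.0346 and 0.0394 with 4sU. Hes1, a Notch target, went the other way, at 0.0737 and 0.0694 against 0.0364 and 0.0631.

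Targets of p53 had 21 members past the minimum, a median SLAM MAP of 0.886 and medians of 0.0170 and 0.0108 with uridine and 0.0242 and 0.0247 with 4sU. Both 4sU libraries were above at 16 members (76.2%, against 45.5% of all genes) and below at 0, and after centring above at 5 and below at 2. Intervals were separated at 0. Cdkn1a, the cell-cycle inhibitor p21, had 0.0214 and 0.0104 against 0.0385 and 0.0314. Trp53inp1, a p53 cofactor, was at 0 in both uridine libraries and at 0.0221 and 0.0176 with 4sU. Ribosome biogenesis genes (30 members, median SLAM MAP 0.627) had medians of 0.0114 and 0.00805 with uridine and 0.0219 and 0.0174 with 4sU, with 22 members above (73.3%, against 45.5% of all genes) and 0 below, and after centring 11 above and 6 below. Intervals were separated at Ddx21, a nucleolar helicase, and Wdr43, a processome subunit, and both were among the genes called with weights (adjusted p = 0.046 each). Among 10 nuclear noncoding RNAs and snoRNA host genes both 4sU libraries were above at 8 members (80.0%, against 45.5% of all genes) and below at 0, while after centring 1 was above and 3 were below. Neat1, the scaffold of paraspeckles, had 0.0112 and 0.0089 with uridine and 0.0260 and 0.0200 with 4sU.

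**Figure D5:**
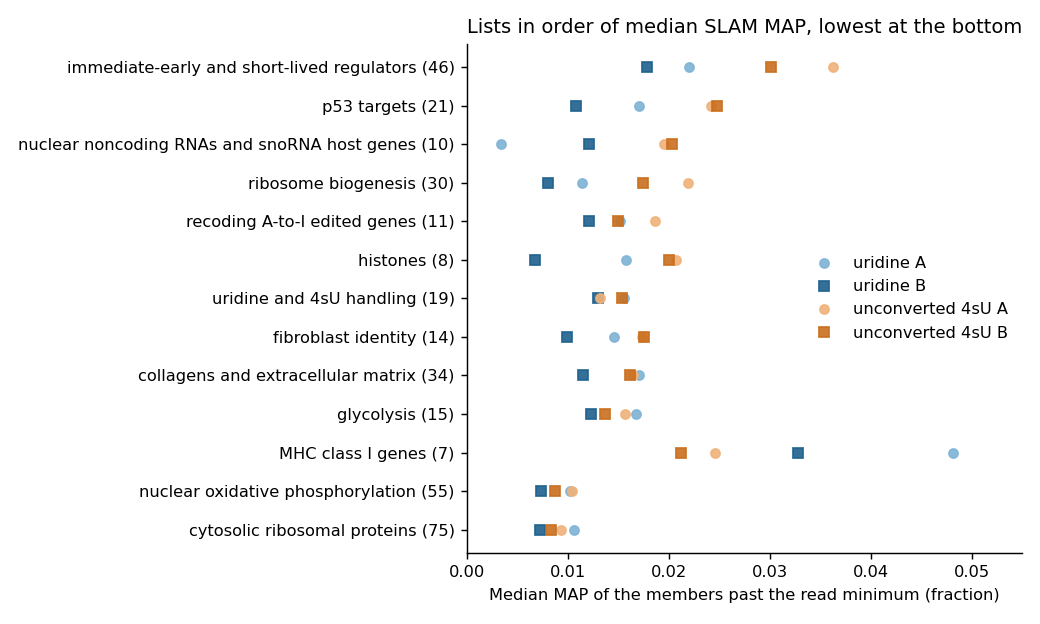
Median MAP (fraction, horizontal axis) of the members of each gene list in the 4 libraries without conversion, with the number of members past the read minimum in brackets and the lists in order of median SLAM MAP. At the top the 4sU points lie to the right of the uridine points (0.0362 and 0.0301 against 0.0220 and 0.0178 for immediate-early genes), and at the bottom the points overlap (0.0093 and 0.0083 against 0.0106 and 0.0072 for ribosomal proteins).

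Among lists of low SLAM MAP, the medians of ribosomal proteins and glycolysis genes overlapped between groups. All 75 cytosolic ribosomal protein genes passed the read minimum, and their median MAP was 0.0106 and 0.0072 in uridine A and B and 0.0093 and 0.0083 in unconverted 4sU A and B. Their median SLAM MAP was 0.136 and their median log2 difference -0.03. Both 4sU libraries were above at 7 members (9.33%, against 45.5% of all genes) and below at 9. After centring 74 of the 75 lay lower in both 4sU libraries (against 26.2% of all genes). Their median log2 difference was then -0.40, against -0.046 for all genes. Nuclear genes of oxidative phosphorylation (55 members, median SLAM MAP 0.144) had medians of 0.0102 and 0.0073 against 0.0104 and 0.0087. Of them 5 were above (9.09%, against 45.5% of all genes) and 8 below (against 4.46% of all genes). Glycolysis genes (15 members) had 0.0167 and 0.0123 against 0.0156 and 0.0137. The fibroblast identity list (14 members, median SLAM MAP 0.217) had medians of 0.0145 and 0.00985 with uridine and 0.0173 and 0.0175 with 4sU, which did not overlap. Its gene-wise median log2 difference was 0.05, with 4 members above (28.6%, against 45.5% of all genes) and 0 below. After centring 0 were above and 9 below (against 18.8 and 26.2% of all genes).

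Collagens and other matrix genes (34 members, median SLAM MAP 0.211) had medians of 0.0170 and 0.0115 with uridine and 0.0164 and 0.0161 with 4sU. Of them 11 were above (32.4%, against 45.5% of all genes) and 0 below, and after centring 2 were above and 23 below. The list was mixed. Col1a1, a chain of type I collagen, had 0.0244 and 0.0198 against 0.0221 and 0.0223, and fibronectin Fn1, with the most reads of the genes named, 0.0316 and 0.0243 against 0.0269 and 0.0258. Thbs2, a thrombospondin related to Thbs1, had 0.0076 and 0.0060 against 0.0125 and 0.0119. Intervals were separated at Thbs1 and Thbs2, among others, and both were called with weights (adjusted p = 0.000198 and 0.046).

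Other lists concerned possible sources of mismatches that do not need 4sU. Whether the reads cover the strand on which A-to-I editing would appear as T-to-C was not examined. Genes with known recoding sites of A-to-I editing (11 members past the minimum) had medians of 0.0151 and 0.0121 with uridine and 0.0186 and 0.0149 with 4sU, and 0 separated intervals. Filamin A (Flna) had 0.0153 and 0.0126 against 0.0161 and 0.0148. Genes of MHC class I, which are polymorphic between mouse strains and near-identical to each other, had 7 members past the minimum and the highest uridine medians of the lists with 5 or more members (0.0481 and 0.0328, against 0.0245 and 0.0212 with 4sU). Their gene-wise median log2 difference was -0.06, with 1 member above (14.3%, against 45.5% of all genes) and 0 below (against 4.46%). H2-K1, a classical class I heavy chain, had 0.0964 and 0.0746 with uridine, 0.0904 and 0.0727 with 4sU and 0.163 and 0.180 in SLAM A and B. B2m, the shared light chain, had 0.0053 and 0.0046 against 0.0061 and 0.0061.

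Genes that handle uridine and 4sU (19 members) had medians of 0.0155 and 0.0130 with uridine and 0.0132 and 0.0153 with 4sU. Of them 7 were above (36.8%, against 45.5% of all genes) and 1 below, and after centring 2 were above and 7 below. Uck2, a uridine-cytidine kinase, was high throughout, at 0.0580 and 0.0440 against 0.0517 and 0.0576. The nucleoside transporter Slc29a2 had 0.0077 and 0.0118 against 0.0506 and 0.0301 (log2 difference 1.33 ± 0.313, limma adjusted p = 0.301). Rrm2, the small subunit of ribonucleotide reductase, was the 1 member with separated intervals, at 0.0191 and 0.0190 against 0.0288 and 0.0291. The 8 histone genes past the minimum had 0.0157 and 0.0067 against 0.0207 and 0.0200.

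The reference genes included long-lived and short-lived RNAs. Gapdh, the glycolytic enzyme, had 0.0149 and 0.0105 in uridine A and B and 0.0130 and 0.0122 in unconverted 4sU A and B (log2 difference 0.00 ± 0.248, limma adjusted p = 1.00). Its SLAM MAP was 0.127 and 0.166. Actb, the cytoskeletal actin, had 0.0175 and 0.0139 against 0.0212 and 0.0214, with separated intervals and a call in the weighted fit only (adjusted p = 0.046), and its log2 difference of 0.29 becomes -0.09 after centring and -0.12 after division by the library median. Myc had 0.0289 and 0.0154 against 0.0446 and 0.0312, and Mdm2, the p53 ubiquitin ligase, 0.0113 and 0.0146 against 0.0289 and 0.0216. Jun (0.0274 and 0.0159 against 0.0413 and 0.0269) and the nuclear RNA Malat1 (0.0191 and 0.0153 against 0.0247 and 0.0185) overlapped between groups. Without uridine B the log2 differences were 0.22 for Jun (0.48 with all 4 libraries), 0.29 for Myc (0.59) and 0.51 for Cdkn1a (0.82). Without uridine A they were 0.75 for Jun and 0.90 for Myc, and without unconverted 4sU A 0.25 and 0.39. Fos lacked the reads to be included.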

How the data were processed

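The submitters' processing notes list cutadapt without a version, STAR 2.7.10b and Bowtie2 2.3.0. No build, annotation, counter or tool behind the new-RNA estimate was named there. Expected counts per gene and library were deposited unscaled, per the file headers and values (24.8 to 30.3% of genes hold a count that is not whole). A fraction per gene (posterior mode, mean and quantiles) was deposited for 8 libraries, per the file headers, which do not name the quantity. Of the values per library, 16 columns (shape values of the estimate) were not used. The genes' lengths were used as deposited. No conversion counts were used here.

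Groups and letters came from the sample titles. Gene counts of A and B differed beyond sampling error (chi-square over degrees of freedom of 47.6 for uridine and 52.1 for unconverted 4sU). log2(MAP + 0.01) was fitted with limma 3.58.1 in R 4.3.3 over the 4 unconverted libraries with a term for 4sU, without a block, and adjusted by Benjamini-Hochberg over 9981 genes. The fit was tested on simulated data; a first simulation gave no calls and was replaced by one with a spread pooled by read depth and larger effects, so the test does not show that smaller effects would be called. Library values were compared by exact permutation. Genes named by rule were, at 500 reads or more and with a symbol that is no predicted or clone name and belongs to 1 gene, the 8 largest differences each way among genes whose libraries do not overlap (none was called), the 8 highest MAP per group, up to 4 called list members and 8 reference genes. Genes of widest gap and other list members were chosen after their values were seen. Genes named for their background share, such as Ddt and Gm26825, were not held to the read and name limits. Members and lists were chosen with earlier results of these data known. Of symbols, 91.2% were found in RefSeq's GRCm38.p6 names table, used for overlaps only. Alternatives were other pseudocounts, untransformed MAP, the posterior mean, other read minimums, precision weights, the letter as a block, each library left out and, chosen after seeing the data, centring each library on its median, dividing it by its median, and a prior variance trend on reads. One result of the matrix list is not reported here.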

Additional observations from a re-analysis of the deposited data

How the results depend on the processing

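The count of called genes was 0 under 13 of 15 alternatives, 4 of which leave 1 library in a group and bear little on stability. With no read minimum it was 3 (1 higher, 2 lower), at genes with 0.3333 to 9 reads a library: Gm14168, Pmp2 and Gm29562, named after their values were seen. With precision weights it was 59, with a smallest adjusted p of 0.000198. Without each library in turn it was 0, with 564 to 1759 genes at an unadjusted p under 0.05, the lone library being assumed to vary like the other group. With the replicate letter as a block, 0 genes were called and 1488 lay at an unadjusted p under 0.05. The A minus B differences of the uridine and 4sU groups had r = -0.003 across genes, so the letters were not taken to pair the libraries for MAP. Across letters, 7 genes had both A intervals above both B intervals and 0 the reverse. The 177 separated genes became 270 to 1118 when each library was left out in turn, as fewer bounds must then clear each other, and stayed at 176 and 177 with other read minimums. The 4sU minus uridine difference kept its direction under every alternative run for the median MAP (0.00435 to 0.00855), the read-weighted mean (0.00236 to 0.00619), rho with SLAM (0.279 to 0.456) and the step between the highest and lowest bin (0.0111 to 0.0141). Of 654 values for 44 named genes, 34 changed sign. Centring each library on its median gave -0.287 for Tnfaip2, -0.239 for Zscan26, -0.310 for Rab32, -0.288 for Jund, -0.254 for Mrs2, -0.202 for Sde2, -0.323 for Tmem63a, -0.375 for Gapdh, -0.0874 for Actb and -0.162 for Malat1. Dividing by the median instead gave, in that order, -0.510, -0.449, -0.525, -0.497, -0.463, -0.408, -0.529, -0.354, -0.122 and -0.208. Both scale each library to its median, which left median log2 differences of -0.046 and -0.036, slightly past 0. With both 0 genes were called, with 882 and 885 at an unadjusted p under 0.05 (414 and 418 higher, 468 and 467 lower, against 1432 and 80 without scaling). Leaving out 1 library gave -0.224 to 0.497 for Zscan26, -0.131 to 0.261 for Rab32, -0.169 to 0.0418 for Drap1, -0.162 to 0.337 for Jund, -0.292 to 0.396 for Tmem63a and -0.140 to 0.140 for Gapdh. Gapdh also had -0.00144 with a pseudocount of 0.05, -0.0001 untransformed and -0.00443 with weights. With 2 libraries a group, no library-level test could pass, and interval width limits genes of few reads.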
